A study of Mus musculus with 4 samples.

Results

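The genes described here are 9 genes of proximal immunoreceptor signalling: the Src family kinase genes Blk, Lck, Fyn and Lyn, the Syk family kinase genes Syk and Zap70, the Tec family kinase gene Btk, the adaptor gene Lat and the receptor chain gene Cd79b. They were chosen by name, and all 9 were found among the 24343 genes of the deposited count table. That total includes 381 rows that matched no gene symbol. RNA-seq was performed on mouse group 3 innate lymphoid cells (ILC3s), tissue lymphocytes that lack rearranged antigen receptors and secrete IL-22. Cells were sorted as Lin-CD127+ and positive for GFP from IL23R-GFP/WT animals, in which a reporter marks cells with an active IL-23 receptor locus, and both groups shared this genotype. One group was treated with medium and the other with TL1A, a cytokine of the TNF superfamily that signals through the receptor DR3, and each group had 2 libraries. The age of the mice, the tissue, the dose, the time and the number of animals are not stated in the labels. The comparison asked how TL1A changes the transcriptome of these cells.

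In lymphocytes, Src family kinases sit at the membrane and phosphorylate tyrosines of ITAM motifs in receptor chains such as CD79B. Syk and ZAP-70 dock on these phosphorylated motifs and then phosphorylate adaptors such as LAT, which assemble signalling complexes. Tec family kinases such as BTK act in those complexes and activate phospholipase C gamma. BLK, BTK and CD79B are best known from B cells, and LCK, ZAP-70 and LAT from T cells, but innate lymphocytes also carry receptors that signal through ITAM chains.

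The deposited table counted reads per RefSeq transcript, so a read in an exon that several transcripts of a gene share had no single row and was not counted for the gene. How many rows a gene had therefore set how much of it was measured. Blk, Cd79b, Lat and Btk had 1 row each. Lck and Fyn had 3 rows each, Lyn and Syk had 2 each, and Zap70 had 4. Matched to GENCODE vM21 transcripts of GRCm38, a later build than the mm9 of the counts, the 3 Lck rows had 248 of 2317 exonic bases (10.7%) that lay in 1 row only. The same length was 208 of 3727 bases for Fyn (5.58%), 76 of 3463 for Lyn (2.19%) and 645 of 5565 for Syk (11.6%). For Zap70 this could not be computed, because 3 of its 4 rows matched the same GENCODE transcript and 1 matched none. Low counts of these 5 genes thus do not show low expression, and no level is read from them. Across the table, 8608 of 19359 genes with 1 row had enough reads to be tested, against 1244 of 4984 genes with several rows.

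**Figure D1:**
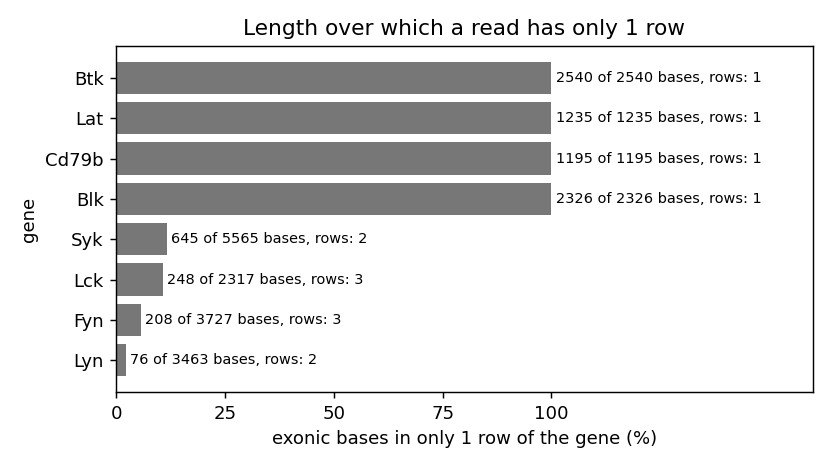
Exonic bases that lie in only 1 deposited row of a gene, as a percentage of the bases in any of its rows (horizontal axis), for the 8 genes with a full match to GENCODE vM21. Blk, Cd79b, Lat and Btk reach 100%, while Lyn has 76 bases, Fyn 208, Lck 248 and Syk 645.

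The stretch that decided the counts of Fyn is shown because most of the countable length of this gene lies in it. The row NM_001122893 had 165 coding bases outside the other rows, and the row NM_001122892 had none. The sequence was read from a GENCODE transcript of GRCm38, 5′ to 3′.
Fyn NM_001122893: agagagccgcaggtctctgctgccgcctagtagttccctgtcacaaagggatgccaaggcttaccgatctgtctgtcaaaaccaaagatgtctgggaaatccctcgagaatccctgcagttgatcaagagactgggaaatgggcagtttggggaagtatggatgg
This stretch did not occur in the gene's other transcripts. Fyn is known for isoforms with alternative exons at the start of the kinase domain.

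The libraries held 11495636 to 12605164 assigned reads, and no library stood apart in depth. Reads in no feature were 35.0 and 32.3% of assigned, no-feature and ambiguous reads in medium, and 30.6 and 28.8% with TL1A. Levels are given as CPM, read counts relative to library size, after TMM scaling, which corrects that size for differences in composition. The TMM factors also separated the groups, at 1.09 and 1.09 in medium and 0.908 and 0.921 with TL1A. What these differences contribute was not tested. The sorted cells carried the transcripts of their sort: Il7r, the gene of CD127, had 3548 and 3658 CPM in medium, and Il23r had 1006 and 994.6. Kit, of the same marker list, had only 1 read in all and has several rows. Among markers of other cells, the summed level of 10 myeloid markers was 89.9 and 105.5 CPM in medium and 44.5 and 52.9 with TL1A, with Cd14 going from 45.7 and 49.2 CPM to 4.74 and 5.69. Of the 7 myeloid markers tested, 2 fell, 1 rose and 4 did not pass. The summed level of 5 mast cell markers was 16.9 and 23.5 CPM in medium and 0.186 and 0 with TL1A, all of it from Cpa3, with the other 4 markers at 0. The summed level of 8 NK cell markers was 27.6 and 25.1 CPM in medium and 465 and 439.7 with TL1A. Most of that sum was Ncr1, which some ILC3s also carry (441.1 and 421.5 CPM with TL1A). Among the 5 NK cell markers tested, 2 rose (Ncr1, Gzmb), 2 fell (Klrk1, Gzma) and 1 did not pass. In these bulk libraries, fewer cells of a type and less RNA per cell cannot be told apart, and the part of such cells in the results was not tested. Whether the libraries of a group are separate animals or cultures is not labelled, so p-values reflect the spread among these libraries alone, and that spread may be technical.

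Blk and Cd79b were higher with TL1A, Lck was lower on few reads, and Lat, Btk and Fyn did not pass the test. Of the 9 genes, 6 had enough reads to be tested (edgeR quasi-likelihood test, Benjamini-Hochberg adjusted p under 0.05 over 9852 genes). Among those 6, 2 were higher and 1 was lower. Over all genes tested, 42.3% passed, 20.6% as higher and 21.7% as lower, so that 3 calls among 6 genes are close to the background. The median log2 fold change of the 6 genes was 0.16, against -0.03 for all genes tested. Both Blk and Cd79b were already known to rise in these libraries when the genes were chosen.

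Blk, which encodes a Src family kinase, had the most reads of the 9 genes over all libraries together. In medium replicate 1, Lat had more, with 1732 reads against 1472 for Blk. The level of Blk was 117.1 and 119 CPM in the medium libraries and 734.6 and 678.9 CPM in the TL1A libraries. Both TL1A libraries lay far above both medium libraries, and the medium libraries were nearly equal. The mean rose from 118 ± 1.32 to 706.7 ± 39.4 CPM (SD, n = 2), a 5.99-fold change (log2 fold change 2.58, SE 0.08, 95% interval 2.40 to 2.76, edgeR adjusted p = 5.56e-07). Of the 9852 genes tested, 271 had a log2 fold change at least as large, Blk included (2.75%). The call was kept under every alternative run, with log2 fold changes of 2.52 to 2.65.

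Cd79b encodes the beta chain of the heterodimer that signals for the B cell receptor. It had 35.9 and 47.1 CPM in medium and 113.9 and 97.6 CPM with TL1A, and the groups did not overlap, as was true of 72.2% of all genes tested. The mean rose from 41.5 ± 7.96 to 105.8 ± 11.5 CPM (SD, n = 2), a 2.55-fold change (log2 fold change 1.35, SE 0.16, 95% interval 0.98 to 1.71, edgeR adjusted p = 0.000418). Without a single library the log2 fold change was 1.16 to 1.59, and the call was kept. Cd79a, the gene of the alpha chain with which CD79B pairs, had 8 reads in each medium library and 1 in each TL1A library, too few to be tested.

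Defining markers of B cells were at or near 0 in all libraries. Of 10 such markers, Ms4a1 and Pax5, each with 1 row, had 0 reads in every library. Cd22, Ebf1 and Fcer2a were also at 0 but have several rows. The summed level of the 10 markers was 5.65 and 3.52 CPM in medium and 2.14 and 1.98 CPM with TL1A, below the level of either Blk or Cd79b in any library. Only Cr2, a complement receptor gene, had enough reads to be tested, and it fell by 1.64 on the log2 scale (edgeR adjusted p = 0.022). Blnk, the B cell adaptor gene downstream of SYK, had 0 reads in both medium libraries and 9 and 8 reads with TL1A, too few to be tested.

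Lat encodes the membrane adaptor that ZAP-70 phosphorylates in T cells. Its level was 137.8 and 115.6 CPM in medium and 99.8 and 115.7 CPM with TL1A, and the groups overlapped by a narrow margin. The means were 126.7 ± 15.7 and 107.7 ± 11.2 CPM (SD, n = 2), and the log2 fold change was -0.23 (SE 0.12, 95% interval -0.52 to 0.05, edgeR adjusted p = 0.165). The interval leaves room for a decrease of up to 0.52 and does not reach the size of the change seen for Blk or Cd79b.

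Btk, the gene of the Tec family kinase known for its part in B cell and myeloid signalling, was measured over its whole length yet had few reads. Its reads numbered 58 and 36 in medium against 36 and 57 under TL1A. That is 4.61 and 2.69 CPM against 3.35 and 4.91 CPM, so the groups overlapped fully. The log2 fold change was 0.18 (SE 0.38, 95% interval -0.71 to 1.07, edgeR adjusted p = 0.732). Leaving out 1 library could turn its sign.

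**Figure D2:**
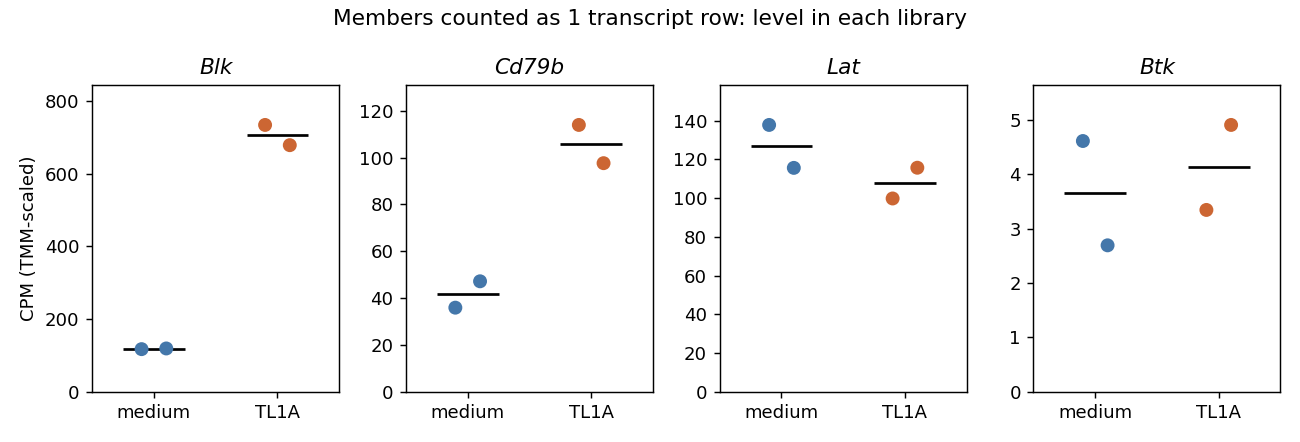
TMM-scaled CPM (vertical axis, from 0, with its own scale in each panel) of Blk, Cd79b, Lat and Btk in the 2 medium and 2 TL1A libraries; points are libraries and lines are group means. Blk goes from 118 to 706.7 CPM and Cd79b from 41.5 to 105.8 CPM without overlap, while the groups overlap for Lat and Btk.

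Because these 4 genes were counted over their whole transcripts, their levels could be set side by side per length, as CPM per kilobase of the matched GENCODE transcript. In medium, Lat was the highest of them with 111.6 and 93.6 CPM per kilobase, followed by Blk with 50.3 and 51.1. Cd79b came next with 30 and 39.4 CPM per kilobase, and Btk was lowest with 1.82 and 1.06. No neighbours in this order overlapped. With TL1A, Blk was the highest with 315.8 and 291.9 CPM per kilobase. Cd79b followed with 95.3 and 81.7 and Lat with 80.8 and 93.7, and these 2 genes overlapped. Btk remained lowest with 1.32 and 1.93 CPM per kilobase.

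Lck, the Src family kinase gene best known for phosphorylating T cell receptor ITAMs, was counted on 28 and 27 reads in medium against 6 and 9 under TL1A. This corresponds to 2.23 and 2.02 CPM against 0.558 and 0.775 CPM. The groups of Lck did not overlap, as was true of 72.2% of all genes tested. Its log2 fold change was -1.65 (SE 0.48, 95% interval -2.77 to -0.53, edgeR adjusted p = 0.0272). The gene passed the filter on low counts only through its medium libraries. The call was lost with DESeq2 (adjusted p = 0.17) and without any single library (adjusted p 0.089 to 0.162).

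Most Lck reads came from 1 row. The row NM_010693, with 116 exonic bases of its own, took 24 and 21 reads in medium against 5 and 5 under TL1A (log2 fold change -1.93, SE 0.53, edgeR adjusted p = 0.0215 over 10100 rows tested, of which 41.8% passed). The row NM_001162433, with 127 bases of its own, took 4 and 6 reads in medium against 1 and 4 under TL1A and was not tested. The row NM_001162432, with 5 bases of its own, had 0 reads in every library. Unequal change of the rows could be tested only with rows of at least 1 read in any library, and it was not called for Lck (diffSpliceDGE adjusted p = 0.761). With the filter on low counts, 268 genes had at least 2 tested rows, of which 4.48% were called, and none of the 9 genes was among the 268. Lck values thus describe short stretches that none of its transcripts share, mostly those of a single transcript.

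The Lck rows start at different places, which correspond to the distal and proximal promoters that this gene is known to have. The 2 windows are shown because both Lck rows with reads start in them. The row with the most reads in every library starts at the proximal window, and the other starts at the distal window. The counts do not give where in a row its reads fell. They therefore do not measure use of either promoter, which was not tested. Each window runs from 250 bases before to 50 after a transcript start, on the minus strand, from RefSeq on GRCm38.p6. The window at chr4:129573592-129573891 holds the start of NM_001162433, and that at chr4:129558323-129558622 holds the starts of NM_010693 and NM_001162432. Capitals mark matches to TGTGGT, the core motif of RUNX factors, and GGAAGT, a core motif of ETS factors, searched on both strands.
Lck distal: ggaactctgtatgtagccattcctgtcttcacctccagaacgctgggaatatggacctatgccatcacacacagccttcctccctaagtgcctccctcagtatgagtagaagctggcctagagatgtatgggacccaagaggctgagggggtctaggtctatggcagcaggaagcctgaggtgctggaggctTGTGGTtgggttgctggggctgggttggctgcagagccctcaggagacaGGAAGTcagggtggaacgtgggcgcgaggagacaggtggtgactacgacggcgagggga
Lck proximal: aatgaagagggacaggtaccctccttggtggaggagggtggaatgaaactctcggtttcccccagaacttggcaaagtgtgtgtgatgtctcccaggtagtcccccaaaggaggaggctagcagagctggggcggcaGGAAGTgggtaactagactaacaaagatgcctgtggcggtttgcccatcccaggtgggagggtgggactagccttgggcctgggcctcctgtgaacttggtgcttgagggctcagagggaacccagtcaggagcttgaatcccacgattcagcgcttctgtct
The distal window held 1 match to each motif and the proximal window 1 match to GGAAGT, with no overlap between matches. Of 32851 promoter windows of the same length, 16.8% held TGTGGT and 23.8% held GGAAGT. The NF-κB consensus, which 8.46% of all windows held, was in none of the 10 windows available for 6 of the 9 genes. Blk, Cd79b and Lyn had no entry in the promoter table.

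Fyn, the gene of a Src family kinase active in T cells and NK cells, was counted on 7 and 13 reads in medium against 8 and 11 under TL1A. Every read came from the row NM_001122893, so the values describe the isoform of that row alone. The gene's other rows had 0 and 43 bases of their own, none of them coding, so other isoforms could hardly be counted. Whether the counted isoform is the main one of lymphocytes was not tested. The groups overlapped, and the log2 fold change was 0.14 (SE 0.58, 95% interval -1.23 to 1.51, edgeR adjusted p = 0.868). Leaving out 1 library could turn the sign, and on so few reads neither a 2-fold rise nor a 2-fold fall lies outside the interval.

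The other 3 genes had too few reads to be tested. Zap70, the T cell and NK cell relative of Syk, was counted on 8 and 4 reads in medium against 1 and 2 under TL1A. Scaled by effective library size, this is a 3.45-fold ratio of medium to TL1A with a 95% exact counting interval of 0.931 to 19.1, which includes no change and covers counting error only. Lyn, the gene of a Src family kinase of B cells and myeloid cells with both activating and inhibitory roles, was counted on 1 and 0 reads in medium against 1 and 1 under TL1A. Syk, the gene of the kinase that docks on ITAMs in B cells and myeloid cells, had 1 read in a single TL1A library. The limit that a count of 0 sets in the medium libraries is 0.239 and 0.224 CPM (3 counts per library), over the short countable stretches only. No fold is given for Lyn or Syk.

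**Figure D3:**
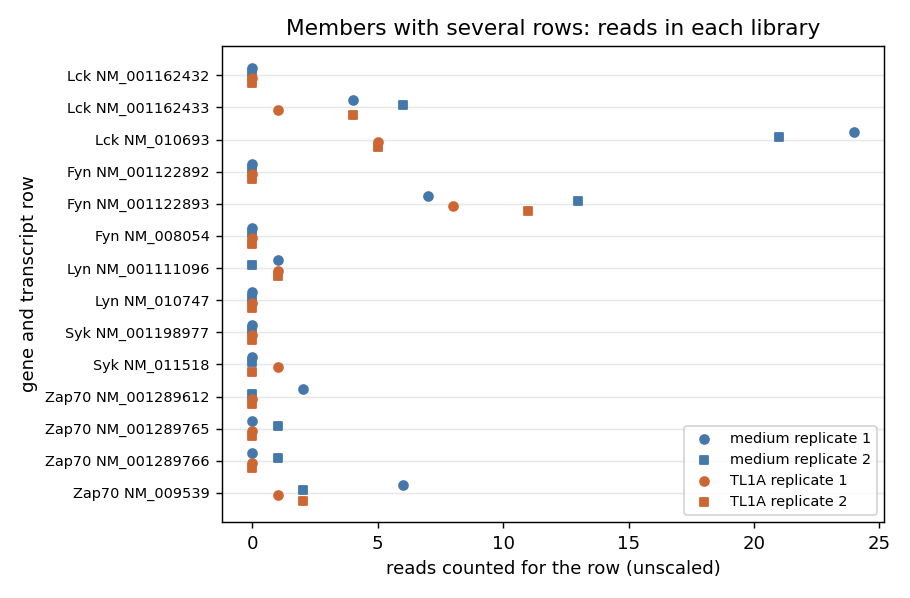
Reads counted in each library (horizontal axis, unscaled) for the 14 transcript rows of Lck, Fyn, Lyn, Syk and Zap70 (vertical axis); colours mark medium and TL1A, and symbols mark the replicate. Only the Lck row NM_010693 exceeds 20 reads, with 24 and 21 in medium and 5 and 5 with TL1A.

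Markers of T cells, the cells in which Lck, Zap70 and Lat are best known, were few apart from Cd4, which some ILC3s also carry. The summed level of 10 T cell markers was 360.6 and 399.1 CPM in medium and 113.1 and 90.7 CPM with TL1A, and it was made up almost wholly of Cd4. Cd3e, the gene of a T cell receptor chain, was counted on 0 and 16 reads in medium against 20 and 16 under TL1A, and Cd3g on 19 and 44 against 26 and 40. Cd8a had 0 reads in every library but has several rows. Of the 5 T cell markers tested, 2 fell (Cd4, Cd28), none rose and 3 did not pass (Cd3e, Cd3g, Cd247). Cd28, with 1 row, was counted on 21 and 67 reads in medium against 5 and 4 under TL1A. The part of T cell markers in the lower Lck count was not tested.

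The rest of the pathway was described by 5 lists of 69 genes, of which 27 have several rows and 13 had 0 reads in every library, 12 of those with several rows. Of the 48 tested, 11 rose, 16 fell and 21 did not pass, or 56.2% called against 42.3% of all genes tested. Their median log2 fold change was -0.30.

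Of the other kinases of these families, 3 of 9 were tested and 6 had 0 reads in every library. Txk, a Tec family kinase gene with 4 rows, was counted on 29 and 28 reads in medium against 10 and 7 under TL1A (log2 fold change -1.52, SE 0.47, edgeR adjusted p = 0.0362). Like Lck, it passed the filter on low counts through its medium libraries. The call was lost with DESeq2 (adjusted p = 0.201) and without any single library (adjusted p 0.0898 to 0.211). Fgr, a Src family kinase gene of myeloid cells, did not pass (log2 fold change -0.09, SE 0.62), with 7 and 24 reads in the TL1A libraries.

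Of 6 tested receptor signalling chains other than Cd79b, 1 fell, none rose and 5 did not pass. Fcer1g, the gene of the ITAM chain of Fc receptors that also serves NKp46, had by far the most reads of the list. It fell from 1559 and 1718 CPM to 701.9 and 677.7 CPM (log2 fold change -1.25, SE 0.07, edgeR adjusted p = 1.04e-05). Tyrobp, the gene of the ITAM adaptor DAP12, did not pass (log2 fold change -0.58, SE 0.21, edgeR adjusted p = 0.0567) but passed with upper quartile factors (adjusted p = 0.0411) and without medium replicate 1 (adjusted p = 0.0456). Hcst, the gene of DAP10, which binds PI3-kinase and has no ITAM, did not pass (log2 fold change -0.23, SE 0.14, edgeR adjusted p = 0.224).

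Adaptors moved in both directions: of 14 tested, 4 rose, 4 fell and 6 did not pass. Grap, the gene of a GRB2-related adaptor of lymphocytes, rose from 19.3 and 24.6 CPM to 135.7 and 140.8 CPM (log2 fold change 2.65, SE 0.14, edgeR adjusted p = 7.2e-06). Pik3ap1, the gene of BCAP, which links receptors to PI3-kinase, fell from 25 ± 2.07 to 7.57 ± 1.11 CPM (SD, n = 2). Skap2, the gene of an adaptor bound by Src family kinases, fell by 0.73 on the log2 scale (SE 0.09).

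Regulators were likewise divided, with 5 higher, 5 lower and 3 not passing among 13 tested. Sla2, the gene of the inhibitory adaptor SLAP-2, fell from 133.6 and 143.6 CPM to 35.9 and 32.5 CPM (log2 fold change -2.02, SE 0.11, edgeR adjusted p = 8.72e-06). Cblb, the gene of a ubiquitin ligase that restrains receptor signalling, rose from 76.8 ± 3.00 to 153.2 ± 7.09 CPM (SD, n = 2). Ubash3b, the gene of a phosphatase that acts on SYK and ZAP-70, rose by 1.21 on the log2 scale (SE 0.12).

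Among the downstream effectors, 2 of 12 tested rose, 5 fell and 5 did not pass. Plcg2, the gene of the phospholipase that BTK activates in B cells, fell from 402.9 and 386.6 CPM to 193.5 and 211.1 CPM (log2 fold change -0.96, SE 0.08, edgeR adjusted p = 6.49e-05). Bcl10, an adaptor gene of NF-κB signalling, rose by 0.75 on the log2 scale (SE 0.09).

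**Figure D4:**
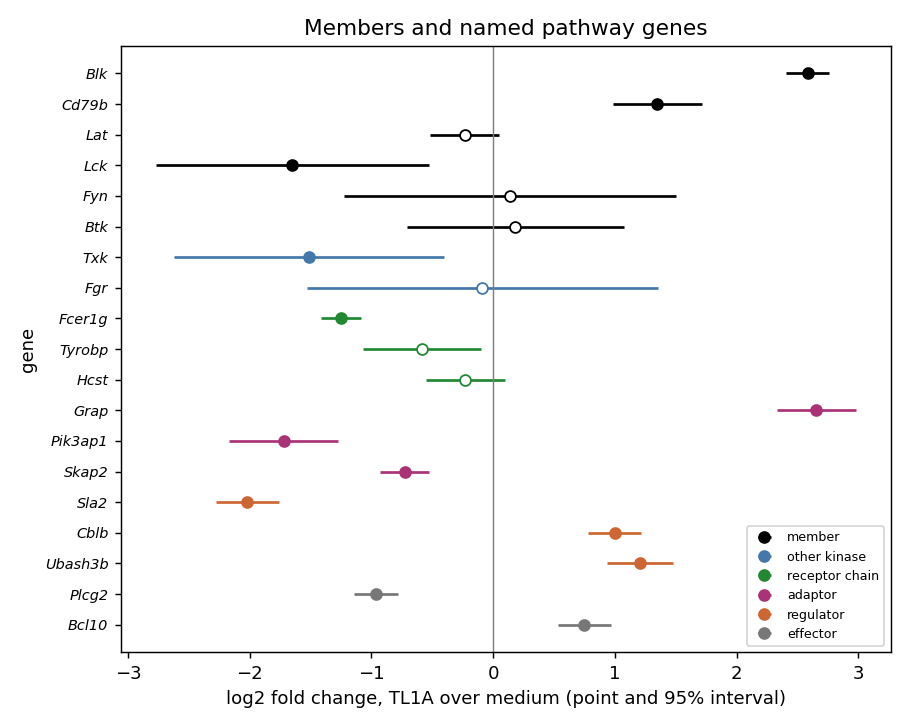
Log2 fold change of TL1A over medium with its 95% interval (horizontal axis) for the 6 tested genes and 13 named genes of the pathway lists (vertical axis); colours mark the list, and filled points passed at an adjusted p under 0.05. Blk (2.58) and Grap (2.65) lie furthest to the right and Sla2 (-2.02) furthest to the left, and the widest intervals belong to genes with few reads such as Lck, Fyn, Txk and Fgr.

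The tested genes whose pattern was nearest to Blk, by Euclidean distance of centred log2 CPM with a pseudocount of 0.5 over the 4 libraries, were Abhd16b, Bcl2a1d and Glipr2, at distances of 0.066, 0.071 and 0.075. Glipr2 had 237.8 and 244.5 CPM in medium and 1425 and 1412 CPM with TL1A. Bcl2a1d was counted on 29 and 32 reads in medium against 177 and 174 under TL1A, and it belongs to a family of near-identical copies whose reads cannot be told apart with certainty. Abhd16b had only 9 reads in each medium library, a mean of 0.695 CPM, which is close to the pseudocount and so draws its distance inward. The log2 fold changes were 3.26 for Abhd16b, 2.73 for Bcl2a1d and 2.56 for Glipr2, against 2.58 for Blk.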

How the data were processed

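RNA from 4 libraries of sorted ILC3s was made into cDNA with a low-input SMARTer kit, per the labels' protocols. CASAVA, STAR and HTSeq were used on genome build mm9, per the submitters' processing notes; those notes give no versions and no strand setting. The authors deposited raw read counts per RefSeq transcript. Summary rows without a gene (69.9% to 71.3% of each column) were left out.

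Of 33535 transcript rows, 33154 matched a symbol in a RefSeq table of GRCm38.p6, used for names only, and rows of a gene were summed. Each of the 381 unmatched rows was kept as a gene with 1 row. Tests were run with edgeR 4.0.16 in R 4.3.3 (filterByExpr at a minimum count of 10, TMM factors, glmQLFTest with group as its single term, two-sided). The SE is the size of the log2 fold change over the square root of F. Alternatives were RLE and upper quartile factors, no filter, DESeq2 1.42.0, limma-voom (limma 3.58.1), a replicate block, each library left out, the row with the most reads per gene, and genes with 1 row. With 2 libraries against 2, no exact permutation p can be below 0.333. The fit was tested on simulated data. The 9 genes and all lists were chosen with earlier results of these data known. The text names the 9 genes, the 3 genes of smallest p in each pathway list, some of which are not reported here, and the 3 nearest to Blk; marker genes were picked from their lists after their values were seen. In GENCODE vM21, exons overlap with microRNAs in Lat and Lck, and with a long non-coding RNA on the other strand of Lyn, whose reads cannot be told apart where strand is not used.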

Additional observations from a re-analysis of the deposited data

How the results depend on the processing

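Blk and Cd79b kept their direction and their call under all 12 alternatives run for each, and Lat did not pass under any of its own. The Lck call was lost with DESeq2 (log2 fold change -1.64, adjusted p = 0.17), under the replicate block (-1.66, adjusted p = 0.0598) and without any single library (-1.90 to -1.43); the cause was not tested, though leaving out a library also leaves fewer samples. The Txk call was likewise lost under the replicate block (-1.53, adjusted p = 0.0687). Fyn and Btk, which did not pass in any setting, changed sign without single libraries (-0.20 to 0.62 for Fyn and -0.13 to 0.61 for Btk), as did Fgr (-1.14 to 0.51). Lck and Fyn have several rows and so gave no value among genes with 1 row only. The lone sample of a group from which a library was left out is assumed to vary like the others. Replicate numbers are shared between groups but not said to mark a common source; deviations of same-numbered libraries correlated at -0.14 over 9852 genes, which are not independent. With the replicate block 1736 genes were higher and 1806 lower, against 2027 and 2141 without it. With crossed numbers, an alternative chosen after seeing the data, 2295 were higher and 2439 lower. Low counts limit Lck, Fyn, Lyn, Syk and Zap70, which have several rows and were each counted on fewer than 30 reads per library.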
